A study of Mus musculus with 6 samples.

Results

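The genes described here are 41 markers of the blood vessels and coverings of the brain, 16 of endothelial cells, 12 of mural cells and 13 of fibroblasts and the meninges. They were found by gene symbol in a table of 51826 mouse genes, and all 41 had a row of their own. All passed the filter on low counts that left 18956 genes for testing. All are annotated as protein-coding, and each had at least 24 counts in every library. RNA came from mouse brain tissue that the labels call the hypothalamic paraventricular nucleus, and was measured by mRNA sequencing of the whole tissue in 6 libraries. Wild-type mice (WT) gave 3 of the libraries, and the other 3 came from mice in which Adam17, the gene of a membrane protease that sheds the outer parts of surface proteins, was knocked out in glutamatergic neurons (KO). In each genotype, replicates 1 and 2 were male and replicate F1 was female. No age, strain, treatment or Cre driver is given in the sources used here, nor whether a library was made from 1 animal or from a pool, so the p-values measure the spread between libraries, which may in part be technical. The comparison asks whether loss of the protease in these neurons goes along with other RNA levels in the tissue around them.

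Endothelial cells line the vessels, and in the brain they form a barrier with tight junctions between the cells, few transport vesicles, and a set of carriers and efflux pumps. Mural cells wrap the endothelium: pericytes lie on capillaries, and contractile smooth muscle cells lie on arterioles and arteries. Fibroblasts sit around larger vessels, in the meninges and in the stroma of the choroid plexus, where they make collagens and small proteoglycans. None of these cells is the one in which the gene was targeted.

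Total counts per library lay between 35114426 and 54421330. Levels are counts per 1000000 counts (CPM) after scaling of library sizes with edgeR's TMM factors, and 3 values in a row stand for replicates 1, 2 and F1 of a genotype. Adam17 itself measured 17.1, 17.2 and 15.6 CPM in WT, against 15.4, 14.6 and 13.9 CPM in KO. The KO libraries were the lower ones without overlap, but the difference, -0.19 ± 0.11 (SE) on the log2 scale, did not pass the test (edgeR's quasi-likelihood test with Benjamini-Hochberg adjustment, adjusted p = 0.747). Mitochondrially encoded genes took 20.6% of the counts in KO 1 and 7.22% to 9.20% in the other 5 libraries. Avp and Oxt, hormone genes that mark the paraventricular nucleus, were present in every library, at 5.25 to 38.2 CPM and 4.001 to 27.6 CPM. The cortical gene Neurod6 was present as well, at 54.6 to 113 CPM.

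Ranked by TPM, transcripts per 1000000 transcripts and so a level corrected for transcript length, the members spanned from 1.39 to 99.1 as means over the 6 libraries. Highest was Vtn (99.1), the gene of vitronectin and in brain a pericyte gene. After it came Ly6c1 (84.8), a surface protein of brain endothelium, Slc2a1 (71.4), the glucose carrier of the barrier, Igfbp2 (64.2), a binding protein of insulin-like growth factors, and Mgp (62.7), the matrix Gla protein. Lowest were Cnn1 (1.39), the smooth muscle protein calponin, Lum (1.65), a proteoglycan, and Col3a1 (1.68), a fibrillar collagen. The median level was 21.0 TPM for the endothelial, 9.96 TPM for the mural and 18.8 TPM for the fibroblast members. Defining markers of all 3 cell classes were present in every library.

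The members differed in how steady they were. From lowest to highest library, Pdgfrb varied 1.15-fold in CPM, the least of the 41, and Col3a1 varied 4.16-fold, the most. The median of this ratio was 1.44 over the endothelial, 1.86 over the mural and 2.02 over the fibroblast members, beside 1.55 over 18759 tested genes with a count in every library. The heat map of levels shows where this spread lay. WT F1 has red cells, from pale to dark, for all 12 mural and 11 of the 13 fibroblast members. Blue cells are those of WT 2 and, in part, KO 1.

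**Figure D1:**
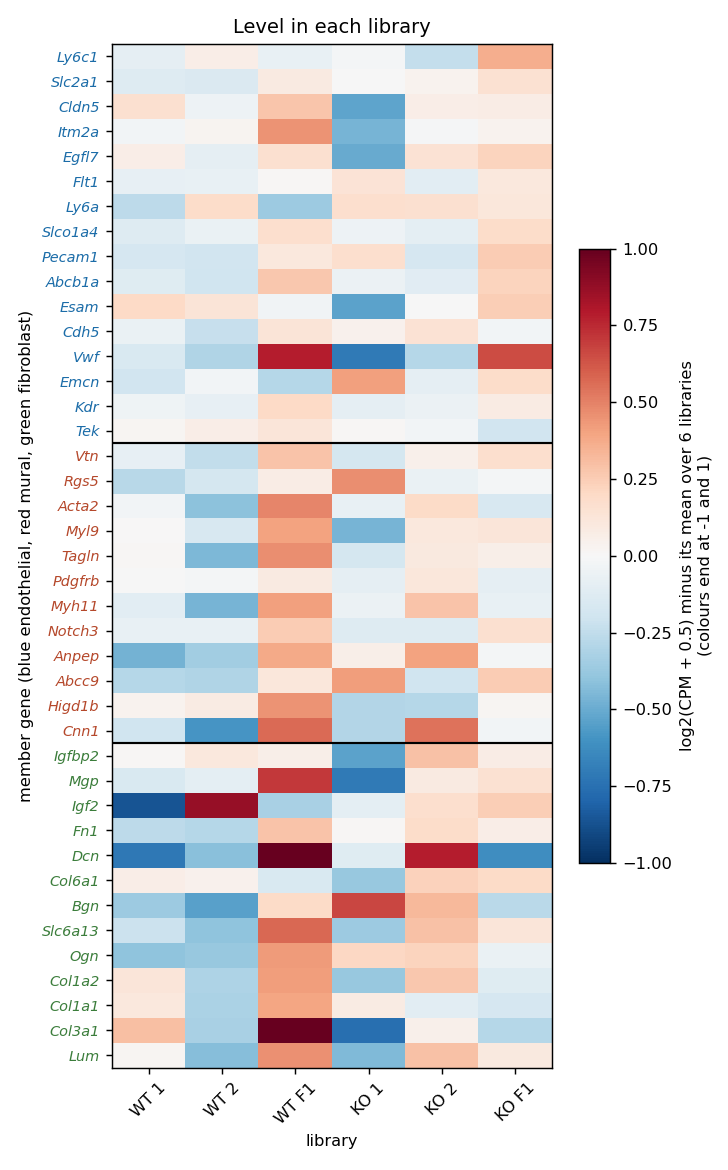
Level of each member (rows, by class and falling mean TPM) in each library (columns), as log2(CPM + 0.5) minus the gene's mean over the 6 libraries, with colours ending at -1 and 1. WT F1 is the highest library for 23 of the 41 members, and KO 1 and WT 2 are the lowest for 15 and 14.

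No endothelial, mural or fibroblast member passed the test in KO against WT. Few genes of any kind did, so this does not show that the members' levels were unchanged. By edgeR's test 0 of 41 passed an adjusted p of 0.05, where 0.00528% of all tested genes did, and by DESeq2's Wald test 0 of 41, where 0.362% did. At an unadjusted p under 0.05 the count was also 0 of 41, beside 6.38% of all tested genes. The lowest adjusted p of any member was 0.735 in edgeR and 0.857 in DESeq2. Log2 fold changes, KO minus WT, were above 0 for 22 of the 41, and over all genes this share was 49.4%. Their medians were 0.023 for the endothelial members, 0.0054 for the mural and 0.052 for the fibroblast members, beside -0.0036 for all tested genes. All KO libraries lay below all WT libraries for 2 members, Tek and Higd1b, and above them for 0, where the shares over all tested genes were 7.32% and 6.61%. For 35 members the 95% interval of the fold change lay within a 2-fold change in either direction, including all 16 endothelial, 10 mural and 9 fibroblast members. In whole tissue, fewer cells of a type and less RNA per cell cannot be told apart. Markers of other tissue also differed between the genotypes, none of them called. KO minus WT was above 0 for all 8 cortex and hippocampus markers, with a median of 0.39. It was below 0 for 5 of 6 paraventricular nucleus markers, with a median of -0.51. Neuron markers were above 0 for 4 of 7 and choroid plexus markers for 5 of 9. At an unadjusted p under 0.05 in edgeR's test, 4 of 8 cortex and hippocampus markers and 3 of 7 neuron markers were higher in KO. In these lists 0 were lower, and 0 paraventricular nucleus or choroid plexus markers passed in either direction, beside the 6.38% of all tested genes. Their part in the genotype differences of the members was not tested.

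**Figure D2:**
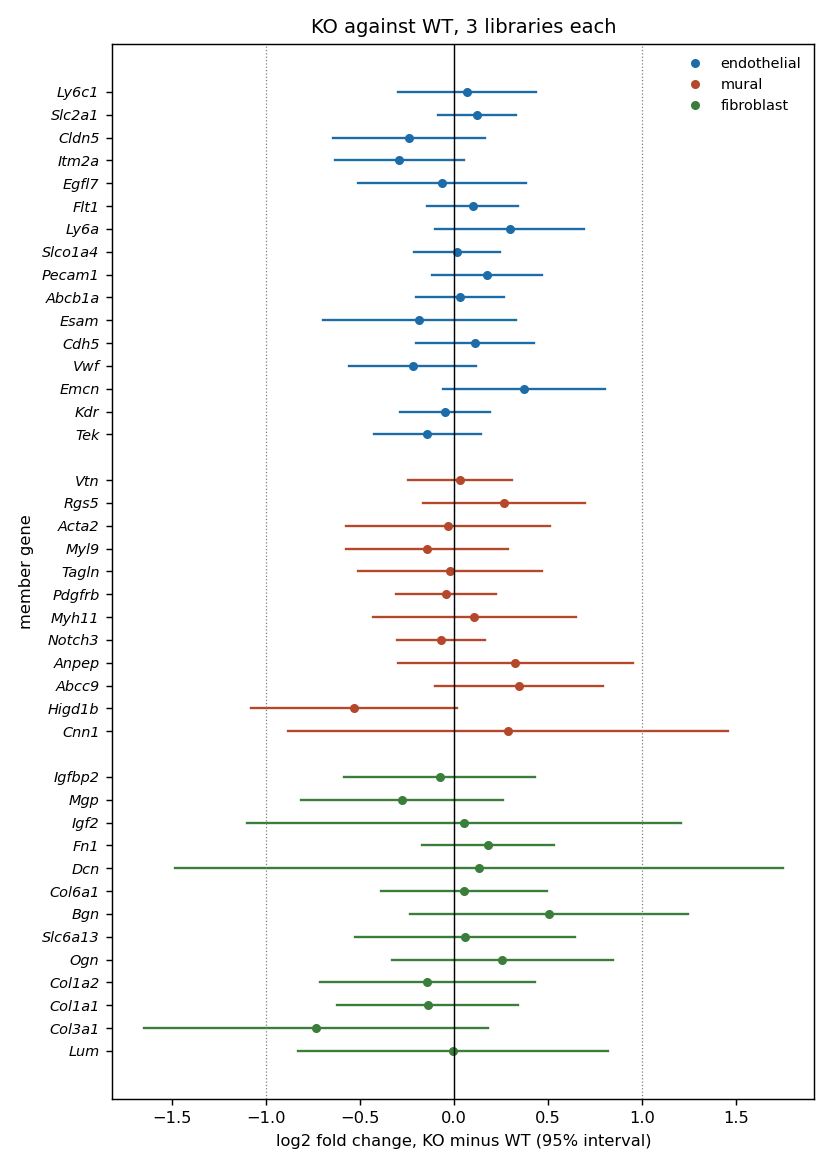
Log2 fold change, KO minus WT, of each member (points) with its 95% interval (lines), by class and falling mean TPM. Dotted lines mark a 2-fold change, and the intervals of 6 members, Higd1b, Cnn1, Igf2, Dcn, Bgn and Col3a1, reach beyond them.

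Among the endothelial members, log2 fold changes ran from -0.29 (Itm2a) to 0.37 (Emcn), and 9 of 16 were above 0. Emcn encodes endomucin, a sialoprotein of capillaries and veins. It stood at 7.05, 7.94 and 6.55 CPM in WT and 10.98, 7.60 and 9.29 CPM in KO. The groups overlapped, since KO 2 lay below WT 2, and the log2 difference was 0.37 ± 0.18 (SE). Itm2a, a membrane protein enriched in brain endothelium, was at 31.9, 33.1 and 44.5 CPM in WT and 23.4, 32.2 and 33.3 CPM in KO. Here KO 1 was lowest and WT F1 highest, and the other 4 libraries lay close together (-0.29 ± 0.14). Ly6a, the stem cell antigen Sca-1 and an endothelial surface marker, measured 8.64, 12.0 and 8.05 CPM in WT and 11.8, 11.7 and 11.4 CPM in KO. The KO libraries were alike, while WT 2 was above all of them and the other WT libraries were below (0.30 ± 0.17).

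For the barrier, junction and surface genes that follow, the libraries of the genotypes overlapped. Slc2a1 was at 93.9, 92.6 and 109 CPM in WT and 102, 105 and 114 CPM in KO (log2 difference 0.12 ± 0.09, 95% interval -0.09 to 0.33). Cldn5, the main claudin of the barrier's tight junctions (chr16:18776847-18778260, plus strand), was at 36.9, 31.9 and 40.0 CPM in WT and 22.8, 34.5 and 34.9 CPM in KO. Only KO 1 stood outside the WT range, and the log2 difference was -0.24 ± 0.17 (95% interval -0.65 to 0.16). Esam, an adhesion molecule of endothelial junctions, had the same low library: 13.3, 12.6 and 11.2 CPM in WT against 7.75, 11.4 and 13.7 CPM in KO. Pecam1, the adhesion molecule CD31, was at 23.7, 23.3 and 28.7 CPM in WT and 30.0, 23.7 and 31.8 CPM in KO, with no low value in KO 1. Ly6c1 was at 26.4, 29.5 and 26.8 CPM in WT and 27.8, 23.8 and 36.3 CPM in KO, so that KO held both its lowest and its highest library.

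The receptors for vascular growth factors varied little. Flt1 and Kdr, the receptors of vascular endothelial growth factor, varied 1.18-fold and 1.23-fold over the 6 libraries, with log2 differences of 0.10 ± 0.10 and -0.05 ± 0.10. Tek, the angiopoietin receptor, was at 15.4, 15.9 and 16.6 CPM in WT and 15.3, 14.9 and 13.3 CPM in KO. Its groups did not overlap, by a narrow margin between WT 1 and KO 1, and the difference of -0.14 ± 0.12 did not pass the test. Of the endothelial members not yet described, Vwf is taken up with the sex difference. The others, Cdh5 (the cadherin of endothelial junctions), Egfl7 (a secreted vessel factor), Slco1a4 (an organic anion carrier) and Abcb1a (the efflux pump P-glycoprotein), had log2 differences between -0.07 and 0.11. The deposited model of Egfl7 overlaps Agpat2, and with the strand setting of the counts not given its reads cannot be separated from that gene's.

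Mural members ranged from -0.53 (Higd1b) to 0.35 (Abcc9) on the log2 scale, with 6 of 12 above 0. Pdgfrb, the receptor through which endothelial PDGF recruits pericytes, was at 32.2, 31.9 and 34.5 CPM in WT and 30.3, 34.98 and 30.4 CPM in KO, a difference of -0.04 ± 0.11 (95% interval -0.31 to 0.22). Higd1b, a pericyte marker (chr11:102835849-102838040, plus strand), was low throughout, at 1.21, 1.27 and 1.78 CPM in WT and 0.869, 0.872 and 1.201 CPM in KO. Every KO library lay below every WT library, with KO F1 just under WT 1, and the difference of -0.53 ± 0.23 (95% interval -1.08 to 0.01) did not pass the test. Vtn was at 68.8, 61.5 and 88.9 CPM in WT and 64.6, 75.7 and 82.2 CPM in KO, with the female library highest in both genotypes.

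The pericyte genes for a G-protein regulator and a potassium channel subunit shared a high library. Rgs5, the regulator (chr1:169655501-169695813, plus strand), was at 82.0, 87.7 and 105 CPM in WT and 137, 94.7 and 97.8 CPM in KO. Abcc9, the sulfonylurea receptor subunit of the channel, was at 11.7, 11.6 and 15.6 CPM in WT and 19.4, 12.5 and 17.3 CPM in KO. Both had their highest value in KO 1, the library with the most mitochondrial counts. Their log2 differences were 0.27 ± 0.18 and 0.35 ± 0.19. Anpep, an aminopeptidase of pericytes and fibroblasts, was at 4.95, 5.44 and 9.36 CPM in WT and 7.37, 9.50 and 6.99 CPM in KO.

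The 5 contractile members, Acta2, Tagln, Myh11, Cnn1 and Myl9, encode smooth muscle actin, transgelin, smooth muscle myosin heavy chain, calponin and a regulatory myosin light chain. Their log2 differences between genotypes lay between -0.14 and 0.28. Acta2 (chr19:34241090-34255336, minus strand) was at 26.2, 20.0 and 37.8 CPM in WT and 25.4, 30.7 and 23.9 CPM in KO. Tagln was at 10.3, 7.37 and 14.4 CPM in WT and 9.03, 11.04 and 10.7 CPM in KO. Its model overlaps Pcsk7 and AC122273.2, so that part of its reads may belong to those genes. Cnn1 was the lowest of the 5 and rested on few counts, with 0.928, 0.589 and 1.92 CPM in WT and 0.834, 1.88 and 1.10 CPM in KO. All 5 were highest in WT F1, and in all 5 the lowest WT library was WT 2. Over all 6 libraries WT 2 was lowest for 4 of them, and KO 1 for Myl9. The KO libraries lay inside the WT range for Acta2, Tagln, Myh11 and Cnn1.

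The promoters of the contractile genes Acta2, Myl9 and Cnn1 are shown beside that of the pericyte gene Rgs5. The sequences are the 250 bases before the RefSeq start site on GRCm38.p6, on the gene's strand, 5′ to 3′. The search was for the CArG box, a motif of 10 bases that serum response factor binds in smooth muscle genes, which reads the same on both strands. Capitals mark matches, exact or with 1 other base in the A and T stretch.
Acta2, chr19:34255374-34255623, minus strand: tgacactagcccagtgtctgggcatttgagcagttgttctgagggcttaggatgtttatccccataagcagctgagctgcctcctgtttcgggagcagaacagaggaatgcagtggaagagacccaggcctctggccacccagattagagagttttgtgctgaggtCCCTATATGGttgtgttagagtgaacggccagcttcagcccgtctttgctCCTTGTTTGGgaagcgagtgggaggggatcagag
Myl9, chr2:156775214-156775463, plus strand: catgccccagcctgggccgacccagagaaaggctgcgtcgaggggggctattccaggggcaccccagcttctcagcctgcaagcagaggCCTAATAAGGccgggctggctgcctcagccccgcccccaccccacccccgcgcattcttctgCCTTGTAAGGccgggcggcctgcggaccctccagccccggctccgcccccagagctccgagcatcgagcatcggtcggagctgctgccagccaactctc
Cnn1, chr9:22099003-22099252, plus strand: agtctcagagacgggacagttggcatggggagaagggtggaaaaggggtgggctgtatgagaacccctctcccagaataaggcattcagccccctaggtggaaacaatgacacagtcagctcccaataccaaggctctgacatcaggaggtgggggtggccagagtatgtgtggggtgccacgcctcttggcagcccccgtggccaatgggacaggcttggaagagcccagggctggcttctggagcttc
Rgs5, chr1:169655251-169655500, plus strand: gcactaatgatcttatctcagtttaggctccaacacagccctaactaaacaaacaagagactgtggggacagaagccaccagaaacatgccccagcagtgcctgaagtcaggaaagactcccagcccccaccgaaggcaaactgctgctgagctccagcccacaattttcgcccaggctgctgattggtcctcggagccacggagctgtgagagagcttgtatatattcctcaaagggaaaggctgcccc

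Acta2 held 2 matches with 1 other base, which began 84 and 34 bases before the start. Myl9 held 1 exact match, 161 bases before the start, and 1 with 1 other base, 99 bases before it. No match was found in the windows of Cnn1 and Rgs5, which says only that these letters are not in those 250 bases. Over all 32851 windows of this length, 1.47% held an exact match and 8.59% a match with up to 1 other base. Among the 8 mural windows these numbers were 1 and 2, among the 14 endothelial windows 0 and 3, and among the 14 fibroblast windows 1 and 2. A match is a description of the letters and not evidence of binding. The tables used here matched 27 members, and no window is shown for Tagln, Myh11, Higd1b, Vwf, Dcn or Mgp.

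Fibroblast members spread the most, with log2 fold changes from -0.74 (Col3a1) to 0.50 (Bgn) and 7 of 13 above 0. Col3a1 (chr1:45311538-45349706, plus strand) was at 3.93, 2.38 and 6.79 CPM in WT and 1.63, 3.24 and 2.45 CPM in KO. WT F1 was the high library and KO 1 the low one, the groups overlapped, and the interval of the difference, -1.65 to 0.18, covers both no change and a fall beyond 2-fold. Col1a1, the main chain of type I collagen, was at 11.1, 8.15 and 13.7 CPM in WT and 10.9, 9.52 and 9.09 CPM in KO (-0.14 ± 0.20). Its partner Col1a2 differed by -0.14 ± 0.24, and Col6a1, a chain of the beaded-filament collagen, by 0.05 ± 0.18. Fn1, fibronectin, was at 67.0, 65.9 and 98.4 CPM in WT and 81.3, 91.5 and 84.4 CPM in KO (0.18 ± 0.15). Fn1 is also made by endothelial cells, and its KO libraries all lay inside the WT range.

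Dcn, Bgn, Ogn and Lum encode small leucine-rich proteoglycans. All 4 were above their own mean in WT F1 and KO 2 and below it in WT 2. Dcn, decorin (chr10:97479609-97518143, plus strand), was at 11.4, 14.2 and 41.3 CPM in WT and 17.5, 33.4 and 12.3 CPM in KO. It was high in 1 library of each genotype, WT F1 and KO 2, and low in the other 4, so that its difference of 0.13 ± 0.65 has an interval from -1.48 to 1.75. Bgn, biglycan (chrX:73483602-73495933, plus strand), was at 15.2, 13.4 and 22.6 CPM in WT and 31.7, 24.8 and 16.3 CPM in KO. Here KO 1 and KO 2 lay above every WT library, and KO F1 fell inside the WT range (0.50 ± 0.31). Ogn and Lum, osteoglycin and lumican, had log2 differences of 0.26 ± 0.25 and -0.01 ± 0.34. Ogn's model overlaps Cenpp, and its reads cannot be told apart from that gene's.

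The growth factor genes and the calcification inhibitor each had a pattern of their own. Igf2, insulin-like growth factor 2, was at 22.5, 75.9 and 32.8 CPM in WT and 38.5, 46.6 and 49.0 CPM in KO. The WT libraries held both its lowest and its highest value, and its deposited model overlaps the antisense gene Igf2os. Choroid plexus epithelium was uneven across the same libraries: Ttr, its transthyretin gene, was at 415, 667 and 135 CPM in WT and 359, 374 and 289 CPM in KO. All 9 choroid plexus markers were above their own mean in WT 2 and 1 was in WT F1. Summed over the 9 genes and rescaled to leave out mitochondrial genes, they came to 357 to 1606 TPM in WT and 704 to 859 TPM in KO, and their part in the level of Igf2 was not tested. Igfbp2, which binds the factor, was steady in WT at 35.9, 38.2 and 37.0 CPM and ranged over 24.3, 43.6 and 37.4 CPM in KO. Mgp was at 14.999, 15.5 and 27.6 CPM in WT and 10.04, 17.8 and 18.7 CPM in KO (-0.28 ± 0.23). Slc6a13, a GABA carrier of the meninges, differed by 0.06 ± 0.24.

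**Figure D3:**
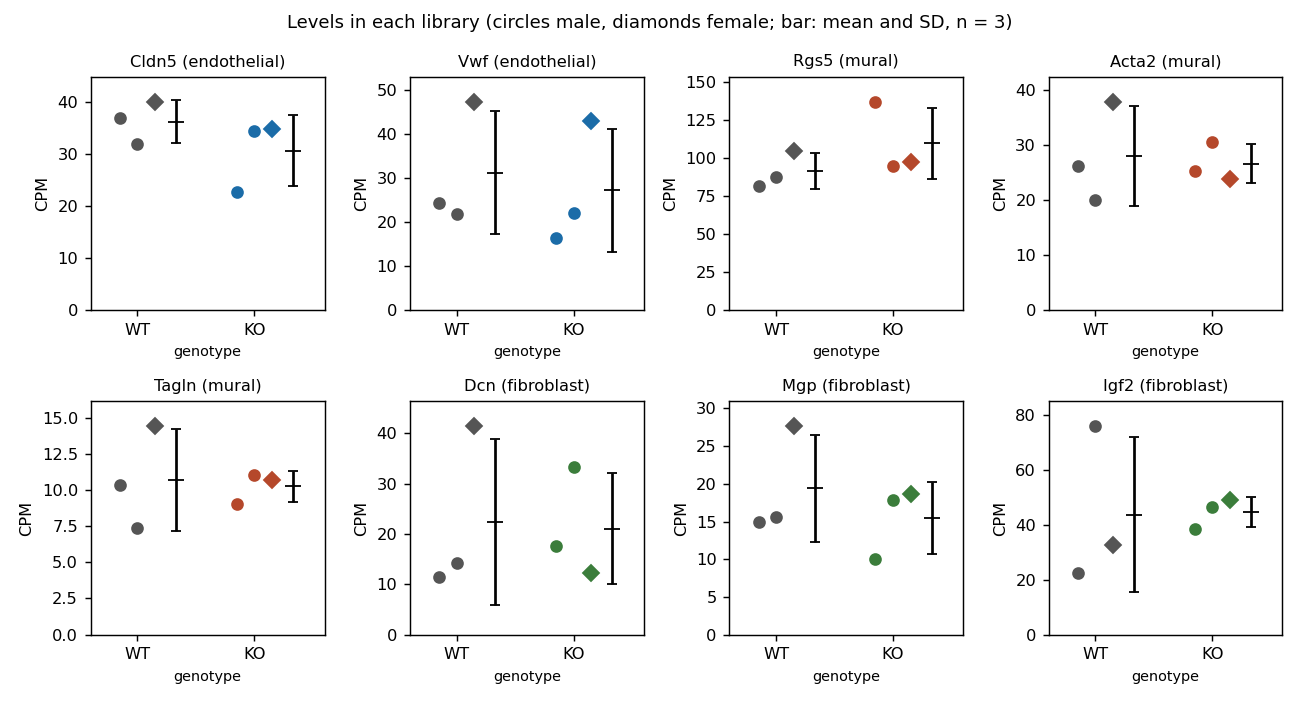
Level in CPM (y axis, from 0) of 8 members in each library by genotype, with circles for male and diamonds for female libraries and black bars for the mean and SD of 3 libraries. Vwf is highest in both female libraries, at 47.3 and 43.1 CPM, whereas Dcn is high in female WT F1 and in male KO 2.

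Sex was the other labelled difference, with 2 female and 4 male libraries. Most members leaned to the female side, without passing the test. Log2 differences, female minus male, were above 0 for 36 of 41 members, where this share over all genes was 49.9%. The medians were 0.22 for the endothelial, 0.32 for the mural and 0.28 for the fibroblast members, beside -0.00068 for all tested genes. Both female libraries lay above all 4 males for 11 members, 7 of them endothelial (Kdr, Slco1a4, Itm2a, Egfl7, Vwf, Slc2a1 and Abcb1a), 3 mural (Vtn, Notch3 and Myl9) and 1 fibroblast (Mgp), where 6.55% of all tested genes did so. Both lay below all males for 0 members, beside 6.32%. By edgeR 0 members passed the adjusted threshold, which 0.0422% of all genes passed. At an unadjusted p under 0.05, 6 were higher in females (Slco1a4, Abcb1a, Vwf, Notch3, Vtn and Mgp) and 0 lower, where the shares over all genes were 1.95% and 2.63%.

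Much of this lean rested on WT F1 in 2 of the classes. Without that library the median sex difference was -0.0059 for the mural and -0.0069 for the fibroblast members, and 25 of 41 members were above 0. The endothelial median without it was 0.25. Without KO F1 the medians were 0.22, 0.51 and 0.66 in the order of endothelial, mural and fibroblast. With WT F1 left out, the sex term compares only KO F1 with KO 1 and KO 2. With KO F1 left out, it compares only WT F1 with WT 1 and WT 2. Within KO, the female library was the highest for 11 of the 16 endothelial members, 4 of the 12 mural and 2 of the 13 fibroblast members. Other tissue markers differed along with sex. Red blood cell markers were above their own mean for 5 of 5 genes in both females, with 1727 and 2360 TPM summed without mitochondrial genes, against 724 to 1496 TPM in males. All 8 cortex and hippocampus markers had log2 differences below 0 in females, with a median of -0.48, and so had all 9 choroid plexus markers, with a median of -0.76. Their part in the sex differences of the vascular genes was not tested.

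The largest sex difference among the members was that of Vwf. It encodes von Willebrand factor, the clotting glycoprotein stored by endothelial cells of larger vessels, at chr6:125546774-125686679, plus strand. It measured 47.3 CPM in WT F1 and 43.1 CPM in KO F1. In the males it was 24.5 and 22.0 CPM in WT and 16.5 and 22.2 CPM in KO, so that the groups did not overlap. The log2 difference was 1.09 ± 0.14 (SE), and both females lay above all 4 males. edgeR's adjusted p was 0.221, and DESeq2's Wald test called it with an adjusted p of 2.31e-06, alone among the members, where DESeq2 called 0.279% of all genes. Over 12 alternatives its log2 difference lay between 0.997 and 1.202 and passed the threshold in 1, that of DESeq2. The other endothelial members differed by -0.20 to 0.37 on the same scale, the most being Abcb1a, with 46.6 and 44.9 CPM in the females and 33.5 to 36.9 CPM in the males. In genotype, Vwf differed by -0.22 ± 0.14.

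**Figure D4:**
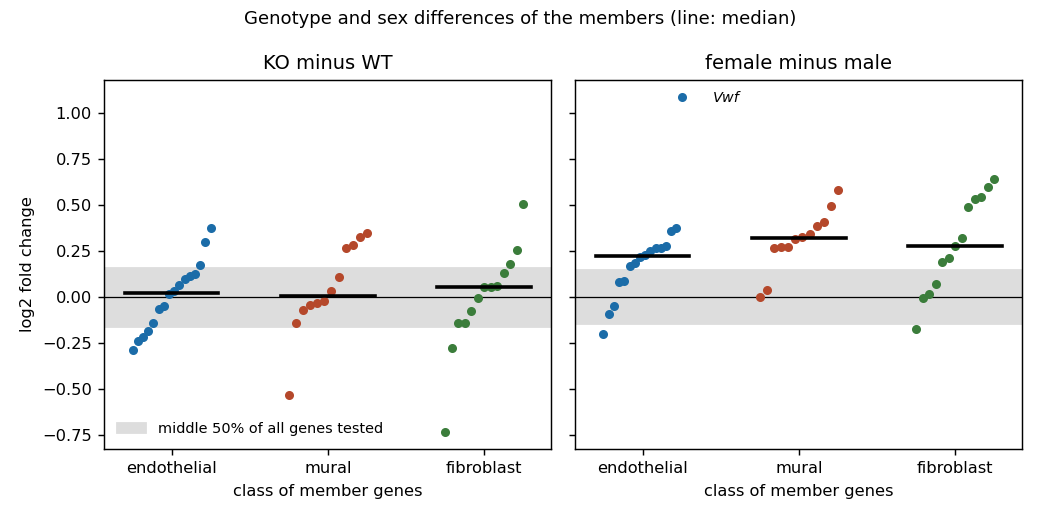
Log2 fold change of each member (points) by class, KO minus WT on the left and female minus male on the right, with the class median as a black line and the middle 50% of all tested genes as a grey band. The genotype medians lie near 0, the sex medians lie between 0.22 and 0.32, and Vwf at 1.09 is the highest point.

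The genotype difference in the females was set against that in the males with an interaction term, which rests on 1 female library in each genotype and on 2 residual degrees of freedom. By edgeR 0 of 41 members passed, beside 0.0739% of all genes. At an unadjusted p under 0.05 there were 7 members, all with a lower KO minus WT difference in females: Anpep, Myh11 and Acta2 among the mural, and Bgn, Dcn, Fn1 and Ogn among the fibroblast members. Over all genes, 3.68% passed in that direction and 3.73% in the other, in which 0 members did. The value was below 0 for all 12 mural members, 10 of 13 fibroblast and 9 of 16 endothelial members, with medians of -0.42, -0.67 and -0.0049. Dcn had the most negative value of the members, -2.74 ± 0.55 (edgeR adjusted p = 0.292, DESeq2 adjusted p = 0.000114). In males it was 11.4 and 14.2 CPM in WT and 17.5 and 33.4 CPM in KO, and in females 41.3 CPM in WT and 12.3 CPM in KO. For Bgn the value was -1.45 ± 0.31 (edgeR adjusted p = 0.305, DESeq2 adjusted p = 0.0311): both KO males lay above both WT males, and the KO female lay below the WT female. These were the members DESeq2 called, 2 of 41, where it called 1.22% of all genes.

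Single libraries carried much of the spread. WT F1 was the highest of the 6 libraries for 23 of 41 members, namely 6 endothelial, 8 mural and 9 fibroblast, where it was highest for 20.0% of all tested genes. KO 1 was the highest for 5 members, beside 28.3% of all genes. WT 2 was lowest for 14, beside 11.7%, and KO 1 was lowest for 15, beside 29.5%. As a median over the contractile members, the deviation from the gene's own mean was 0.47 in WT F1, 0.19 in KO 2, -0.03 in WT 1 and in KO F1, -0.18 in KO 1 and -0.45 in WT 2, on the log2 scale. The 15 further smooth muscle genes followed this only in part, with 0.21 in WT F1, 0.20 in KO 1, 0.02 in KO 2 and -0.32 in WT 2. Over the fibroblast members the median deviation was 0.42 in WT F1 and 0.23 in KO 2, and it was negative in WT 1 (-0.15), WT 2 (-0.31) and KO 1 (-0.37). The endothelial members moved less, between -0.09 in WT 1 and 0.17 in KO F1. Among contractile and fibroblast members alike, WT F1 and KO 2 were the highest libraries of their genotypes, and these libraries differ in sex and in genotype.

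Levels were also summed per class, where the most abundant genes weigh most. Rescaled to leave out mitochondrial genes, the endothelial members came to 579, 585 and 669 TPM in WT and 470, 548 and 666 TPM in KO. Mural members came to 321, 287 and 422 TPM in WT and 293, 335 and 355 TPM in KO. Fibroblast members came to 322, 389 and 497 TPM in WT and 256, 427 and 343 TPM in KO. In each class the genotypes overlapped, WT F1 was the highest WT library and KO 1 the lowest KO library. The order of the other libraries was not always that of the median deviations: by sum, fibroblast genes were lower in WT 1 than in WT 2, and mural genes higher in KO F1 than in KO 2. Perivascular macrophages share the space of these fibroblasts: their 7 markers summed to 18.6, 10.6 and 19.5 TPM in WT and 10.4, 15.3 and 16.6 TPM in KO, none of them called. Markers of the paraventricular nucleus itself summed to 322, 92.4 and 408 TPM in WT and 101, 102 and 187 TPM in KO. WT 2, low in contractile genes, was thus also the WT library lowest in nucleus markers and highest in choroid plexus markers, and their part in the levels of the vascular genes was not tested.

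KO 1 differed from the rest in a way that went along with base composition. Across the 41 members, its deviation from the other 5 libraries had a Spearman correlation of -0.47 with the G + C content of the longest coding transcript, and over 15454 tested protein-coding genes the same value was -0.38. This is a description across genes of 1 library. In the other 5 libraries, whose comparison means include KO 1, the value ran from -0.03 (WT F1) to 0.40 (WT 1) over the members. Over all tested protein-coding genes it ran from 0.05 (WT F1) to 0.27 (KO 2). The deviation of KO 1 also went along with transcript length, at 0.29 over the members and 0.27 over all these genes. Of the 20 members above the median content of 52.5%, 17 were lower in KO 1 than in the mean of the others, with a median of -0.33 on the log2 scale. Of the other 21, 11 were lower, with a median of -0.03. Rgs5 (41.1%) and Emcn (41.5%) were higher by 0.56 and 0.50, and Cldn5 (60.5%) and Igfbp2 (62.1%) were lower by 0.63 and 0.65. Other members went the opposite way: Itm2a (41.7%) and Lum (41.9%) were at -0.56 and -0.53, and Col1a1 (58.9%) was at 0.10. Bgn, with 52.5%, was higher by 0.80, and Col3a1, also with 52.5%, was lower by 0.91. Without KO 1 the median KO minus WT differences were 0.029 for the endothelial, 0.029 for the mural and 0.17 for the fibroblast members, and again 0 of 41 members passed. The parts of base composition and of transcript length were not tested.

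**Figure D5:**
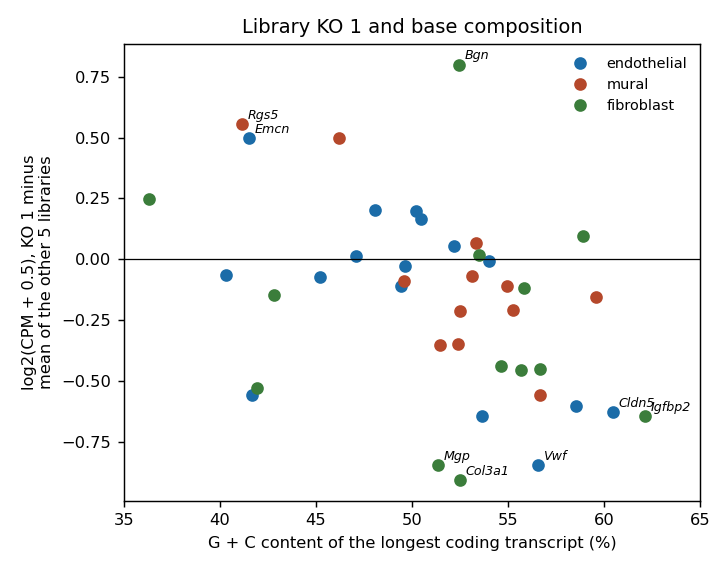
Difference of library KO 1 from the mean of the other 5 libraries on the log2(CPM + 0.5) scale (y axis) against the G + C content of the longest coding transcript in percent (x axis), 1 point per member, coloured by class. Of the 20 members above the median content, 17 lie below 0, among them Cldn5 and Igfbp2, and of the other 21, 11 do. Rgs5 and Emcn lie above 0, while Itm2a and Lum, of similar content, lie below it.

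Lists of further genes from the same cells and pathways gave the same outcome: none held a gene called in KO against WT by edgeR or DESeq2. Of 18 other barrier genes, 14 had log2 differences above 0 (median 0.032). Slc16a1, the lactate carrier, was at 29.5, 28.7 and 34.0 CPM in WT and 24.6, 25.4 and 24.8 CPM in KO, below WT in every library (-0.30 ± 0.11, edgeR adjusted p = 0.735). In this list all KO libraries lay below all WT libraries for 2 genes, Slc16a1 among them, and above them for 2. Over all tested genes these shares were 7.32% and 6.61%, which also stand beside the non-overlapping genes of the lists below. Slc7a5, the carrier of large neutral amino acids, was at 44.996, 48.5 and 64.4 CPM in WT and 70.7, 58.3 and 68.3 CPM in KO (0.34 ± 0.13). Of 21 genes of vascular growth factor signalling, 10 were above 0 (median -0.036). Tie1, the partner receptor of Tek, was at 11.6, 12.2 and 12.6 CPM in WT and 8.13, 10.1 and 11.5 CPM in KO, again without overlap. Acvrl1, a BMP receptor of endothelium, differed by -0.25 ± 0.16.

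In the Wnt and Norrin pathway, which induces and keeps the barrier, 12 of 18 genes were above 0 (median 0.091). Ndp, the ligand Norrin, was at 6.36, 5.49 and 7.08 CPM in WT and 3.61, 4.74 and 5.37 CPM in KO. Foxq1, a forkhead factor of brain endothelium, was at 6.12, 5.18 and 7.15 CPM in WT and 8.06, 8.54 and 7.79 CPM in KO. Neither gene's groups overlapped, in opposite directions, and their differences of -0.47 ± 0.17 and 0.41 ± 0.16 both had an edgeR adjusted p of 0.735. Among 19 tested genes that mark arteries, capillaries or veins, 10 were above 0 (median 0.0023). Alpl, a capillary phosphatase, was at 12.3, 13.9 and 12.8 CPM in WT and 10.4, 9.83 and 11.9 CPM in KO (-0.28 ± 0.13), and Slc16a1 belongs to this list too.

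Of 14 basement membrane genes, 5 were above 0 (median -0.078). Lama2, a laminin chain, differed by -0.31 ± 0.12. Sparc, a matrix protein that is abundant in endothelium and glia, was at 421, 430 and 723 CPM in WT and 423, 334 and 411 CPM in KO, with WT F1 apart from the other 5 (-0.38 ± 0.16). Of 15 further smooth muscle genes, 12 were above 0 (median 0.11). Tpm1, a tropomyosin that neurons and astrocytes also express, was higher in every KO library, at 173, 169 and 155 CPM in WT and 249, 207 and 176 CPM in KO (0.34 ± 0.11, edgeR adjusted p = 0.735). Pln, phospholamban, whose model overlaps Cep85l, was at 1.16 to 2.58 CPM, with a difference of -0.57 ± 0.30. Of 14 further pericyte genes, 9 were above 0 (median 0.11), with Pla1a at 0.58 ± 0.29 and Cd248, endosialin, at 0.43 ± 0.23. Among 22 further fibroblast genes, 13 were above 0 (median 0.036). Col5a2, a minor fibrillar collagen, was at 3.76, 4.26 and 5.64 CPM in WT and 2.71, 3.44 and 3.04 CPM in KO, below WT in every library (-0.55 ± 0.20). Islr, whose model overlaps 2 other genes, differed by 0.39 ± 0.17.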

How the data were processed

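Per the file headers, each library's deposited columns give raw counts, TPM and FPKM per Ensembl gene. Trimming and quality tools are named in the submitters' processing notes, but for aligner, counter, strand setting and genome build the entry is: not given in the sources used here. Of the members, 37 of 41 have identical coordinates in GENCODE M21 (GRCm38), so coordinates were read as GRCm38. Deposited FPKM, proportional to TPM in each library, was only checked. Deposited TPM served for levels per length and for an alternative test.

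Counts of all genes kept by filterByExpr (18956) were tested with edgeR 4.0.16 in R 4.3.3 (TMM scaling, robust quasi-likelihood fits, genotype and sex as terms, Benjamini-Hochberg threshold 0.05). The interaction fit added the product of genotype and sex. SE is the log2 fold change over the square root of F, and 95% intervals use the fit's degrees of freedom. Library totals of 35114426 to 54421330 counts make 3 counts worth 0.051 to 0.104 scaled CPM, which covers counting error only. The test was run on simulated counts with set changes and the same dispersion for every gene. That check does not measure the power of the test in these libraries. Members and lists were chosen with earlier results of these data known. Values in every library are given for the 4 members per class with the smallest KO versus WT p, the 3 highest in TPM, the 3 most variable, and Cldn5, Pecam1, Pdgfrb, Rgs5, Acta2, Tagln, Col1a1 and Dcn. For each further list the 2 genes with the smallest p are named, and marker lists of other cell types are given as summed levels, counts and median differences. Single genes of those lists (Avp, Oxt, Neurod6 and Ttr) were added after their values were seen. Alternatives were other scalings and filters, DESeq2 1.42.0, limma 3.58.1 on log2 TPM, a fit without the sex term, a block for replicate number, the males alone, and leaving out libraries. Added after seeing the data were leaving out WT F1 with KO 1, leaving out mitochondrial genes, and the alternatives for the sex medians and Vwf.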

Additional observations from a re-analysis of the deposited data

How the results depend on the processing

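No member passed the threshold in KO against WT under any of 18 alternatives. Of 738 recomputed log2 fold changes, 560 stayed within 1 SE, 178 moved further, and 115 turned sign, in 35 members, none past the threshold. Scaling moved whole classes together with all other genes. The endothelial median was -0.14 with library totals, and -0.29 and -0.31 with limma on log2(TPM + 1) and log2(TPM + 0.1). The mural median was -0.25 and -0.26 in the TPM fits, and the fibroblast median was -0.35 with log2(TPM + 0.1). The median of all genes shifted to -0.17, -0.24 and -0.29 with totals and the 2 TPM fits. Leaving out WT F1 and KO 1, in a fit without the sex term, gave higher class medians without a like shift in all genes. The medians were then 0.16 for the endothelial, 0.26 for the mural and 0.26 for the fibroblast members, beside 0.0017 for all genes. The fibroblast shift was within that class's spread between libraries of a genotype, 0.35. These libraries were picked after their levels were seen. KO F1 was then the only female library, so genotype and sex cannot be told apart in this fit. Leaving out 1 library gave medians of 0.0013 to 0.033, -0.10 to 0.23 and -0.24 to 0.17 for the 3 classes.

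Over all genes, KO against WT called 1 gene in the reported fit. It called 4 without a filter, 75 with DESeq2, 4 and 5 in the TPM fits, 3 without sex, 18 in males only, 27 without both libraries, and 0 to 20 leaving out 1 library. Same-numbered libraries did not deviate together across all genes (correlations -0.044, 0.018 and 0.012), and the reported fit used no pairing. Whether equal numbers stand for a pairing is not given in the sources used here, and these correlations cannot settle it. With the replicate number as a block 0 genes were called.

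Female against male called 8 genes, and 13 without a filter, 2 with at least 10 counts in every library, 56 with DESeq2 (1 member, Vwf), 15 with log2(TPM + 1), and 6 to 25 leaving out 1 library. The endothelial sex median was 0.34 with totals and 0.39 with log2(TPM + 1). Leaving out 1 library gave 0.16 to 0.25 for the endothelial, -0.0059 to 0.51 for the mural and -0.0069 to 0.66 for the fibroblast median, both low ends without WT F1 and both high ends without KO F1. The interaction called 14 genes, and 1 with totals, 36 without a filter, 6 with at least 10 counts, 214 with DESeq2 (2 members, Dcn and Bgn) and 33 with log2(TPM + 1). With 3 libraries a genotype, the intervals of 6 members still held a 2-fold change.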
